A study of Mus musculus with 35 samples.

Results

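The 9 genes described here, Tubb3, Map2, Stmn2, Ncam1, Elavl3, Elavl4, Gap43, Nefl and Nefm, are neuronal cytoskeleton and differentiation genes. They were taken by symbol from 3 tables of RNA-seq read counts of mouse neuroectoderm (NE) cells, which together list 18930 genes. All 9 were in every table and all 9 passed the filter on low values, so each value below is given for every member.

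Neurons differ from dividing progenitors in their cytoskeleton. Microtubules built with neuronal tubulin are crosslinked by microtubule-associated proteins, loosened by stathmins and accompanied by neurofilaments, which set the calibre of axons. Neuronal RNA-binding proteins of the ELAV family stabilise and splice messages of differentiating neurons, and membrane and growth cone proteins serve adhesion and axon extension. In cultures of embryonic stem cells (ESCs) treated with retinoic acid (RA), these genes mark the step from neural progenitor to early neuron.

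The cells were V6.5 mouse ESCs, a male line of mixed 129/C57BL/6 background, differentiated to NE by withdrawal of LIF and treatment with 1 uM RA for 72 h. The line carried either unaltered Tet3 (Tet3+/+), Tet3 with substitutions in the iron-binding site that remove catalysis (Tet3m/m), or Tet3 with exon 4 deleted (Tet3-/-). On day 3, 3 untransfected Tet3+/+ libraries, 3 Tet3m/m and 2 Tet3-/- libraries were made, each described by the study as an independent clone. In the Dnmt1 experiment, each genotype was transfected at day 0 with an empty myc vector or with myc-tagged Dnmt1, selected with blasticidin and sequenced as 2 libraries per group. In the experiment with the Tet3 catalytic domain (Tet3-CD), each genotype received an empty tdTomato vector or HA-tagged Tet3-CD on day 2, with 1 library per group, and the methods place its collection later than the day 3 of its labels. The methods name no sorting of transfected cells before RNA extraction, and the labels do not give the clone behind each transfected library. In bulk RNA, fewer neuronal cells and less RNA per cell cannot be told apart.

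Reads assigned to genes numbered 36594650 to 47710548 per day 3 library, 31155842 to 50845950 per library with the Dnmt1 or matching empty vector and 33475041 to 37707719 per library of the Tet3-CD set, and the lowest value of any member, Elavl4 in a Tet3-CD experiment library, rested on 34 reads. The targeted genes followed their labels in part. Tet3 stood at 4576.5 to 5020.0 normalised counts in day 3 Tet3+/+ cells, at 1945 to 2666 in Tet3m/m and at 1796 to 2329 in Tet3-/-, whose deletion covers exon 4 and whose counts per gene do not separate exons. Among the 6 empty vector libraries beside Dnmt1, those of Tet3+/+ had Tet3 at 2957 and 3075, those of Tet3m/m at 964 and 1125, and those of Tet3-/- at 2520.3 and 2571. Markers of the labelled cell type were present, with the 12 neural progenitor factors summing to 15923 to 30378.5 normalised counts on day 3 and 9729 to 28566 in the transfected cultures. The 10 extraembryonic endoderm markers were also present in every library, at summed levels of 11703 to 40491 on day 3 and 16644.9 to 278145 in the transfected cultures.

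Promoter sequences were in hand for 4 of the 9 genes, Tubb3, Map2, Elavl3 and Elavl4 (RefSeq, GRCm38.p6, 300 bases around the annotated start). Those of Elavl3 and Elavl4, the pair that fell furthest on day 3 in Tet3m/m cells, and of Tubb3, the one member called with Dnmt1, are printed below 5′ to 3′ on the strand of the gene. Capitals mark CANNTG, the E-box read by proneural basic helix-loop-helix factors, whose letters are the same on both strands.
Elavl3, chr9:22051974-22052273, minus strand: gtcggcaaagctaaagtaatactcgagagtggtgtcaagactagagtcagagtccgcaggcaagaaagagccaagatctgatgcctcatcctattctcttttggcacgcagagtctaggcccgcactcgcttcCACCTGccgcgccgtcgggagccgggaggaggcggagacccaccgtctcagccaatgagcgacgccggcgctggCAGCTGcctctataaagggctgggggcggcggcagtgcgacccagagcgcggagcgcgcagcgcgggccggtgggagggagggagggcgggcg
Elavl4, chr4:110287478-110287777, minus strand: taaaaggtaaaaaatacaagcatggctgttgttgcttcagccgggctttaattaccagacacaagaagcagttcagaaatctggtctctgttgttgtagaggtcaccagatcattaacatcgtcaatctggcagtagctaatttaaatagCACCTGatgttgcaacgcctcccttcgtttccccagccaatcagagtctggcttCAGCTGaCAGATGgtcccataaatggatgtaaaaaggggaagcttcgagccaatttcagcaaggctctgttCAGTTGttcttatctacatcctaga
Tubb3, chr8:123411303-123411602, plus strand: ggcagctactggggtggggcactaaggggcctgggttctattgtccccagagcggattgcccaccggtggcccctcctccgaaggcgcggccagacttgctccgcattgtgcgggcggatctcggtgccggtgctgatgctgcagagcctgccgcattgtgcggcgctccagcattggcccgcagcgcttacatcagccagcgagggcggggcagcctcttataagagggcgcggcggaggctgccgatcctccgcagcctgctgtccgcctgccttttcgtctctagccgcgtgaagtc

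The Elavl3 window held 2 E-boxes and the Elavl4 window 4, and the windows of Tubb3 and Map2 held 0. Across 32544 promoter windows of this length, 72.3% held at least 1 E-box, a share read here as the background of the match. Elavl4 has 4 annotated starts, and their windows held between 0 and 4 E-boxes. AGGTCA, a half-site of retinoic acid receptors searched on both strands, was found 1 time in the Elavl4 window shown and not in those of Elavl3, Tubb3 and Map2, against 16.25% of all windows with a match. The windows differed in CpG number, with 37 in Map2, 29 in Elavl3, 26 in Tubb3 and 5 in the Elavl4 window shown, beside a median of 7 over all windows. The other Elavl4 windows held 23, 6 and 4 CpGs, and the one with 23 held 0 E-boxes. These are matches of letters only.

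In day 3 Tet3+/+ cells the members spanned a wide range of expression. Per kilobase of annotated exon, Tubb3, the neuron-enriched beta-tubulin, had the highest mean level at 913 normalised counts, followed by the growth cone protein gene Gap43 at 433, the cell adhesion gene Ncam1 at 188 and the stathmin Stmn2 at 120 (119.9). The neurofilament genes Nefm and Nefl were at 83.2 and 79.5, the RNA-binding protein genes Elavl4 and Elavl3 at 57.8 and 56.4, and Map2, which encodes a dendritic microtubule-associated protein, at 34.7. Nefm and Nefl, and likewise Elavl4 and Elavl3, lay closer together than their replicates did. These levels depend on which exons are counted as gene length. Nefl and Nefm share 1108 exon bases on opposite strands, and since the strand setting of the counting was not given, reads from that stretch could not be assigned to one of them.

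Untransfected Tet3m/m NE cells, which carry the catalytic substitutions, were compared with Tet3+/+ cells on day 3. Their Tet3 RNA was also lower, at 1945 to 2666 against 4576.5 to 5020.0 normalised counts. The part of lost catalysis and of the lower Tet3 level in the values below was not tested. Of the 9 genes, 5 were lower in Tet3m/m and 1 was higher at an adjusted p under 0.05 and a fold above 1.5 (limma on log2 values, all genes adjusted together). Among the 17915 genes tested, 5.19% were called lower and 5.06% higher. The members called lower were Elavl3, Elavl4, Nefm, Tubb3 and Map2, and the one called higher was Stmn2. The median log2 fold change of the 9 genes was -1.04, beside 0.00081 over all genes tested.

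**Figure D1:**
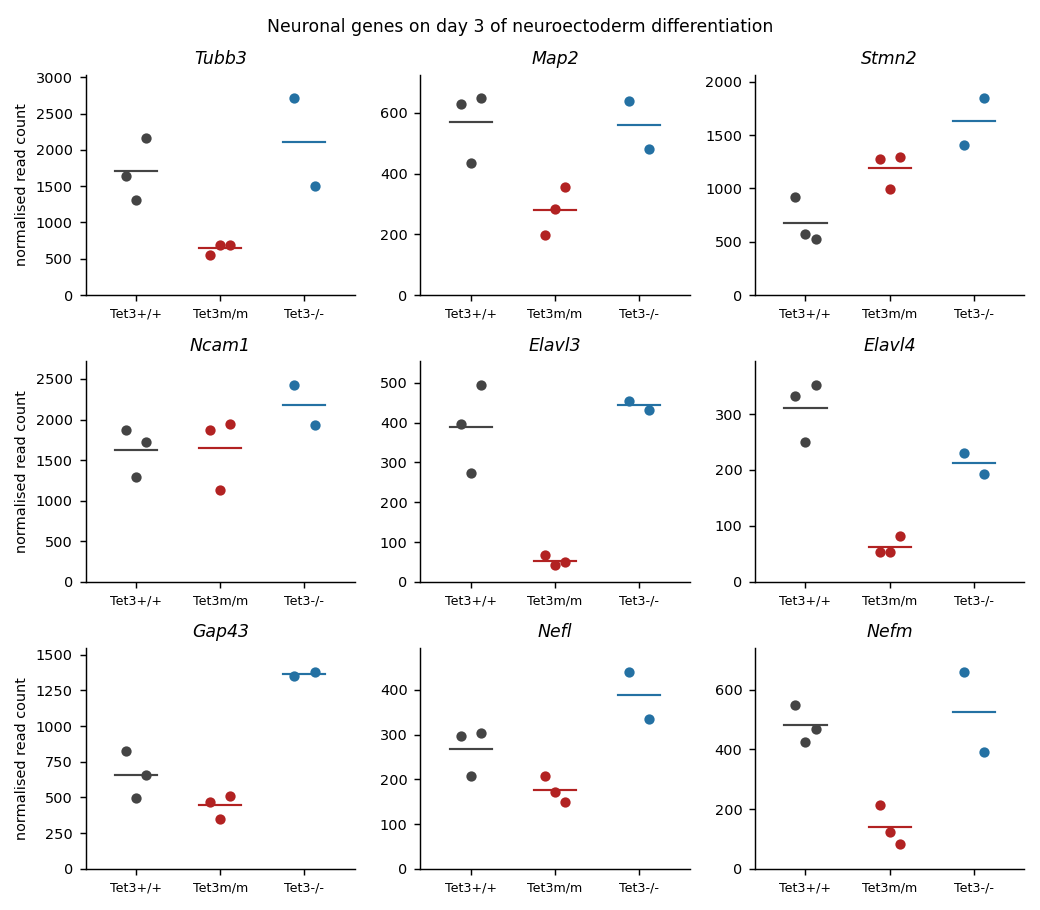
Normalised read counts of the 9 genes in each untransfected day 3 library, with 1 point per library and a bar at the group mean (3 Tet3+/+, 3 Tet3m/m and 2 Tet3-/- libraries); axes start at 0. All Tet3m/m points lie below all Tet3+/+ points for Tubb3, Map2, Elavl3, Elavl4 and Nefm, and above them for Stmn2. The share of all genes with such a separation is not given.

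The RNA-binding protein genes moved most. Elavl3 was at 396, 275 and 494 normalised counts in the Tet3+/+ libraries and at 66.6, 43.0 and 50.9 in the Tet3m/m libraries. The groups did not overlap, and the level in Tet3m/m was 7.05-fold lower (log2 fold change -2.82 ± 0.25 SE, adjusted p = 0.000117). Elavl4 was at 332, 250.3 and 352 in Tet3+/+ and at 53.3, 54.0 and 81.5 in Tet3m/m, which was 4.93-fold lower (log2 -2.30 ± 0.24 SE, adjusted p = 0.000287). Both encode ELAV-family proteins that bind AU-rich stretches of neuronal messages.

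Both microtubule genes called lower fell by a smaller factor. Tubb3 counted 1636, 1311 and 2169.5 in Tet3+/+ libraries and 551, 693 and 693 in Tet3m/m libraries, 2.60-fold lower (log2 -1.38 ± 0.23 SE, adjusted p = 0.0033). Tubb3 lies on chromosome 8, whose other genes were themselves lower in Tet3m/m libraries, with a median log2 ratio of -0.29 to -0.38 against Tet3+/+. The Tet3+/+ libraries themselves were at -0.12, -0.07 and 0.20 by that measure, the last being replicate 3, which also had the highest Tubb3 value of its group. With each chromosome centred on its own median, the log2 fold change of Tubb3 was -1.03 (adjusted p = 0.00216), and the part of the chromosome-wide shift in the rest was not tested. Map2 was at 630.3, 435 and 648 in Tet3+/+ and at 199, 285 and 357 in Tet3m/m (log2 -1.04 ± 0.24 SE, adjusted p = 0.0158), and every Tet3m/m value lay below every Tet3+/+ value. Without Tet3+/+ replicate 1 or 3 the adjusted p of Map2 was 0.067 or 0.0711.

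The neurofilament genes did not move to the same extent. Nefm, the medium chain, stood at 549, 424 and 469.5 in Tet3+/+ and at 215, 123 and 81.5 in Tet3m/m, 3.68-fold lower (log2 -1.88 ± 0.32 SE, adjusted p = 0.0039). Nefl, the light chain, was at 296, 207 and 302 in Tet3+/+ and at 208, 172 and 149.7 in Tet3m/m. The Nefl groups overlapped and its log2 difference of -0.60 ± 0.22 SE missed the threshold (adjusted p = 0.0965), although DESeq2 called it (adjusted p = 0.0455). The difference between both chains was not tested. Both genes lie on chromosome 14, whose other genes had median log2 ratios of -0.14, -0.05 and 0.19 in Tet3+/+ replicates 1, 2 and 3. In the Tet3m/m libraries these medians were -0.06, -0.10 and -0.12. Tet3+/+ replicate 3 had the highest Nefl value of its group, and replicate 1 the highest Nefm value. The part of this chromosome-wide shift in both genes was not tested.

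Stmn2, which encodes a stathmin of growing axons, went the other way. It was at 916, 569.7 and 529.8 in Tet3+/+ and at 1280.3, 998 and 1296 in Tet3m/m, so that the lowest Tet3m/m library lay above the highest Tet3+/+ library (log2 0.86 ± 0.21 SE, adjusted p = 0.0196). The call was lost without Tet3+/+ replicate 2 or 3 or Tet3m/m replicate 1 (adjusted p = 0.077, 0.0837 and 0.0541). Gap43, a growth cone phosphoprotein gene, was at 823, 499 and 656 in Tet3+/+ and at 471, 351 and 509 in Tet3m/m (log2 -0.56 ± 0.20 SE, adjusted p = 0.0854), and it was called lower without Tet3+/+ replicate 2 (adjusted p = 0.0401). Ncam1 did not separate the genotypes, with 1873, 1295 and 1721 against 1865, 1132 and 1939.8 (log2 -0.01, 95% interval -0.47 to 0.45).

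Tet3-/- cells, in which exon 4 of Tet3 is deleted, were compared with Tet3+/+ cells of the same day. Of the 9 members 1 was called higher and 0 lower, beside 0.458% and 0.184% of all genes tested (limma; 2 members had an unadjusted p under 0.05, edgeR called 1 and DESeq2 called 2). The called gene was Stmn2, at 1410.4 and 1847 in the Tet3-/- libraries, which was 2.48-fold above Tet3+/+ (log2 1.31 ± 0.23 SE, adjusted p = 0.0471). That call lies close to the threshold and was lost when any Tet3+/+ or Tet3-/- library or Tet3m/m replicate 2 was left out (adjusted p up to 0.166). Gap43 was at 1351 and 1379.9, above every Tet3+/+ library, and just missed the threshold (log2 1.08 ± 0.22 SE, adjusted p = 0.0506). It was called by DESeq2 (adjusted p = 0.000392).

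The members that were low in Tet3m/m stayed within or near the Tet3+/+ range in Tet3-/- cells. Elavl3 was at 455 and 433 (log2 0.23 against Tet3+/+, 95% interval -0.39 to 0.86) and Tubb3 at 2713 and 1502 (log2 0.27, -0.29 to 0.84). The lower Tubb3 value came from the library whose other chromosome 8 genes had a median log2 ratio of -0.31, against 0.18 in the other Tet3-/- library. Map2 was at 640.5 and 482 (log2 -0.02, -0.61 to 0.57) and Nefm at 659.6 and 392 (log2 0.09, -0.71 to 0.88). Elavl4 was at 231 and 192, below every Tet3+/+ library, although its log2 difference of -0.54 ± 0.27 SE was not called (adjusted p = 0.292). Nefl was at 440.1 and 335 and Ncam1 at 2425 and 1931, above Tet3+/+ in each library and not called (adjusted p = 0.249 and 0.332).

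Setting both mutants against each other gave the clearest split on day 3. In Tet3-/- cells 7 of the 9 members were higher than in Tet3m/m and 0 were lower, where 5.41% of all genes tested were called higher and 4.33% lower. Elavl3 was 8.29-fold higher (log2 3.05 ± 0.28 SE, adjusted p = 0.000351), Nefm 3.91-fold (1.97 ± 0.36, adjusted p = 0.00674), Elavl4 3.38-fold (1.76 ± 0.27, adjusted p = 0.00317), Tubb3 3.14-fold (1.65 ± 0.26, adjusted p = 0.00317) and Gap43 3.11-fold (1.64 ± 0.22, adjusted p = 0.00143). Nefl and Map2 were 2.19-fold and 2.03-fold higher (adjusted p = 0.0139 and 0.0314). For these 7 genes both Tet3-/- values lay above all 3 Tet3m/m values, a separation for which no share over all genes is given. Stmn2 and Ncam1 were not called (log2 0.45, 95% interval -0.06 to 0.96, and 0.44, -0.08 to 0.95). Without Tet3-/- replicate 1 only 4 members were called, and Map2, Nefl and Nefm were not (adjusted p = 0.18, 0.0978 and 0.0593). Map2 also missed the threshold without Tet3+/+ replicate 1, Tet3m/m replicate 2 or Tet3-/- replicate 2, and in a fit of these groups alone (adjusted p = 0.0508 to 0.0726).

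Of 44 related neuronal genes in 7 lists, 41 could be tested, and on day 3 in Tet3m/m 13 were lower and 4 higher, with a median log2 fold change of -0.16. Of all genes tested, 5.19% were called lower and 5.06% higher in that comparison. The largest falls were in Scg3, a secretory granule gene (log2 -4.82 ± 0.56 SE), the synaptic fusion gene Snap25 (-3.81 ± 0.84), the RNA-binding protein gene Celf3 (-3.28 ± 0.30) and the zinc finger gene Myt1 (-3.08 ± 0.30). The 4 called higher were Syn1, which coats synaptic vesicles (1.01 ± 0.27), the intermediate filament genes Prph (0.92 ± 0.21) and Nefh (0.87 ± 0.19), and Uchl1, a neuronal deubiquitinase gene (0.71 ± 0.14). The 3 stathmin genes outside the members had a median log2 fold change of -0.23, beside 0.86 for Stmn2. In Tet3-/- against Tet3+/+ 1 of the 41, the endosomal gene Nsg2, was called lower (log2 -1.76 ± 0.32) and 0 higher, beside 0.184% and 0.458% of all genes. In that comparison 19 of the 41 had an unadjusted p under 0.05 in either direction, edgeR called 1 and DESeq2 called 9. Against Tet3m/m, 12 were higher in Tet3-/- and 0 lower, beside 5.41% and 4.33% of all genes. The rises were led by Scg3 (5.21 ± 0.62), Snap25 (4.0 ± 0.94), Myt1 (3.15 ± 0.34) and the axonal adhesion gene Cntn2 (2.89 ± 0.16).

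Marker lists of other cell types and stages were counted in the same day 3 comparisons. In Tet3m/m against Tet3+/+, 8 of 12 neural progenitor factors and 7 of 8 tested proneural factors were called lower (median log2 -1.14 and -2.13), beside 5.19% of all genes, and the proneural factors summed to 341 to 433 normalised counts against 1733 to 2476. In the other direction 1 of 8 pluripotency genes and 3 of 10 extraembryonic endoderm genes were called higher, beside 5.06% of all genes, with sums of 10445.5 to 26027 against 7129 to 11666 and of 21951 to 40491 against 14013 to 18956. In Tet3-/- the proneural sum was 924 to 968, also below Tet3+/+, with 2 of 8 proneural factors called lower and 0 higher. Of 12 progenitor factors 1 (Nes) and of 7 neural crest genes 1 were called higher, beside 0.458% higher and 0.184% lower of all genes. At an unadjusted p under 0.05 in either direction were 11 of 12 progenitor factors, 4 of 8 proneural factors and 5 of 7 neural crest genes. For these lists edgeR called 0, 2 and 1 genes, and DESeq2 called 5, 3 and 2. The 8 fibroblast genes summed to 44415 to 49354 against 18576 to 29439 (median log2 0.60), and limma called 0 of 8, with 3 at an unadjusted p under 0.05, while edgeR called 0 and DESeq2 1. Of 10 extraembryonic endoderm genes limma called 0 (median log2 -0.96), with 7 at an unadjusted p under 0.05, and edgeR called 0 and DESeq2 4. Against Tet3m/m, Tet3-/- cells had 5 of 8 proneural factors higher and 8 of 10 extraembryonic endoderm genes lower, beside 5.41% higher and 4.33% lower of all genes. Of the other lists in Tet3m/m, 1 of 6 primitive streak and mesoderm genes was called higher, 2 of 7 neural crest genes higher and 3 lower, and 1 of 8 fibroblast genes higher. In Tet3-/- against Tet3+/+ 0 of 6 primitive streak and mesoderm genes were called, with 2 at an unadjusted p under 0.05. The part of these lists in the values of the 9 genes was not tested.

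**Figure D2:**
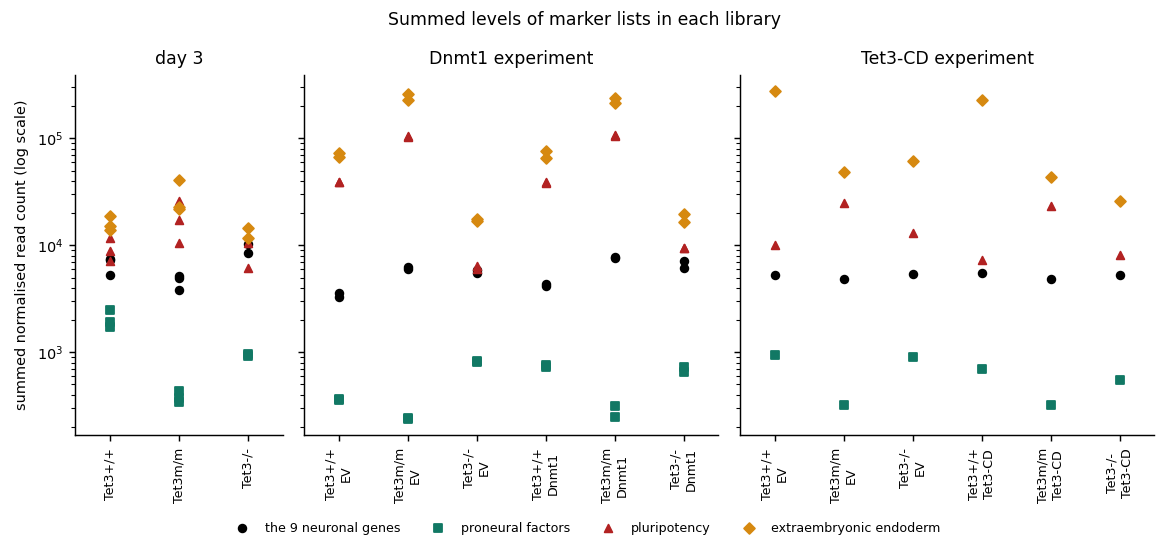
Summed normalised read counts, on a log axis, of the 9 neuronal genes and of 3 marker lists in each library of the 3 experiments (EV, empty vector). The proneural sum is lowest in Tet3m/m in each experiment, and the extraembryonic endoderm sum reaches 278145 in transfected Tet3+/+ cells and 259946 in transfected Tet3m/m cells.

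The empty vector groups of the Dnmt1 experiment gave the same genotype comparisons in transfected and blasticidin-selected cells. Of the 9 genes 6 were called higher and 0 lower against Tet3+/+, beside 10.3% and 10.9% of the 18055 genes tested. The 6 were Nefl, Nefm, Stmn2, Elavl3, Gap43 and Map2, and the median log2 fold change of all 9 was 0.83 beside 0.0068 for all genes. The labels do not say whether the libraries of a group come from separate cultures or clones, so p-values in this experiment measure the spread between these libraries, which may be technical.

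**Figure D3:**
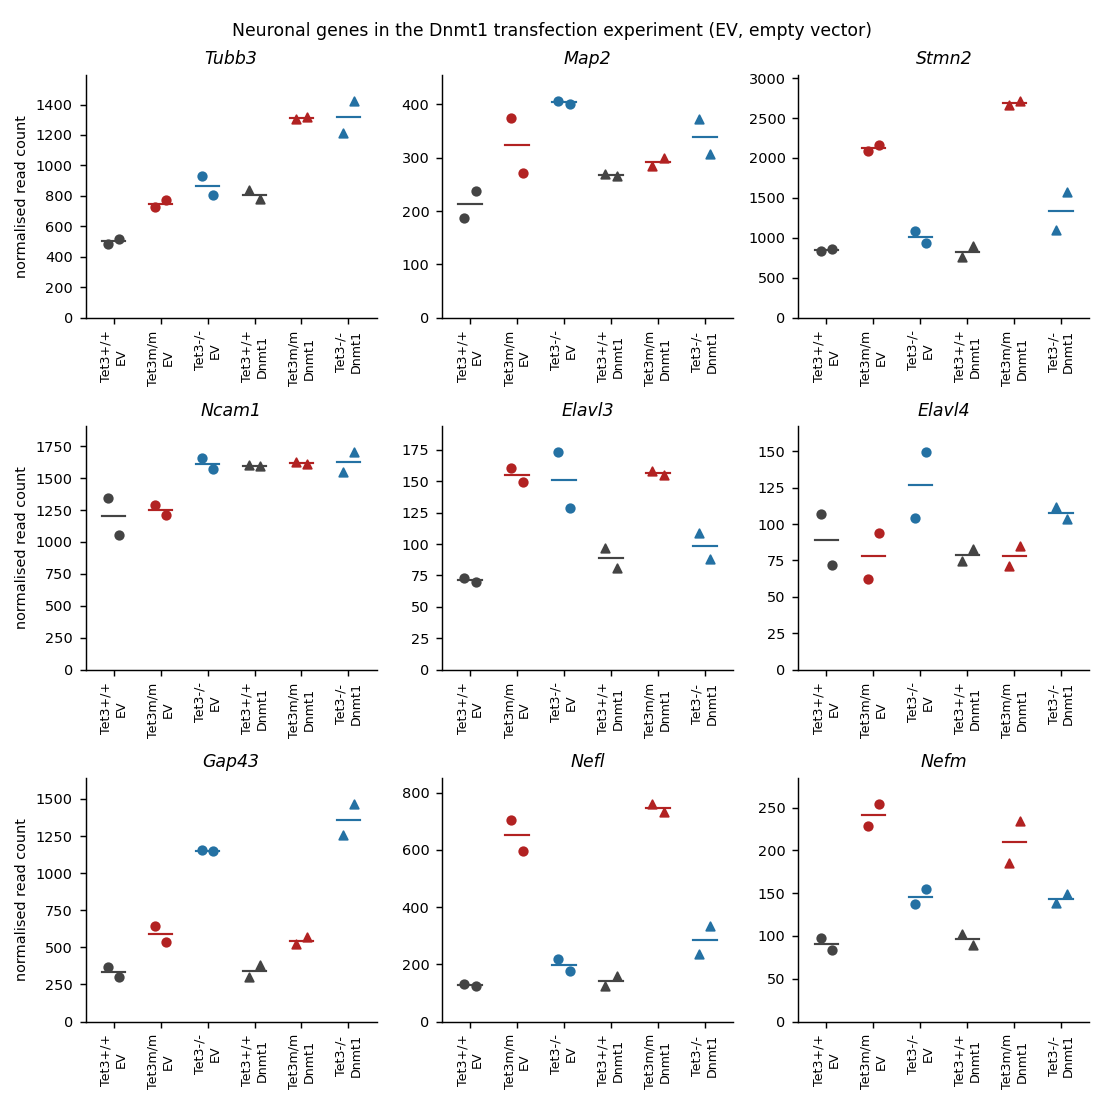
Normalised read counts of the 9 genes in each library of the Dnmt1 experiment, with circles for empty vector (EV), triangles for Dnmt1 and a bar at the mean of each group of 2 libraries; axes start at 0. With EV, Stmn2, Nefl and Nefm are highest in Tet3m/m and Gap43 in Tet3-/-, and Tubb3 is higher with Dnmt1 than with EV in each genotype.

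The neurofilament genes rose furthest. Nefl was at 130.4 and 124 in Tet3+/+ and at 706 and 596 in Tet3m/m, 5.07-fold higher (log2 2.34 ± 0.17 SE, adjusted p = 2.56e-10). Nefm was at 97.8 and 83.5 and at 228 and 254 (log2 1.40 ± 0.19 SE, adjusted p = 2.91e-06). For both chains the Tet3m/m libraries lay far above the Tet3+/+ libraries, whereas on day 3 Nefm was lower in every Tet3m/m library. Stmn2 was at 829.8 and 863 in Tet3+/+ and at 2091 and 2161 in Tet3m/m (log2 1.33 ± 0.11 SE, adjusted p = 3.14e-09), the one member called higher in Tet3m/m in both experiments. Elavl3 was at 73.1 and 69.6 and at 160.8 and 149.8 (log2 1.11 ± 0.22 SE, adjusted p = 0.000211).

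Gap43 was at 365.5 and 299 in Tet3+/+ and at 642 and 538 in Tet3m/m (log2 0.83 ± 0.13 SE, adjusted p = 1.12e-05). Map2 was at 188 and 238 and at 375 and 271, with a fold of 1.51 that barely passed the limit (adjusted p = 0.00409) and fell under it with a pseudocount of 5, TMM rescaling or chromosome centring (log2 0.58, 0.57 and 0.52). Without empty vector Tet3+/+ library 1 or Tet3m/m replicate 1 the log2 value of Map2 was 0.42 or 0.36. Tubb3, at 482 and 519.5 against 729 and 771, lay just under the fold limit (log2 0.58 ± 0.09 SE, adjusted p = 2.48e-05). The other genes of chromosome 8 were lower in both Tet3m/m libraries, at a median log2 ratio of -0.44, and with chromosomes centred the log2 fold change of Tubb3 was 1.03 and was called. Ncam1 and Elavl4 did not separate these groups (log2 0.07, 95% interval -0.11 to 0.25, and -0.20, -0.76 to 0.37).

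**Figure D4:**
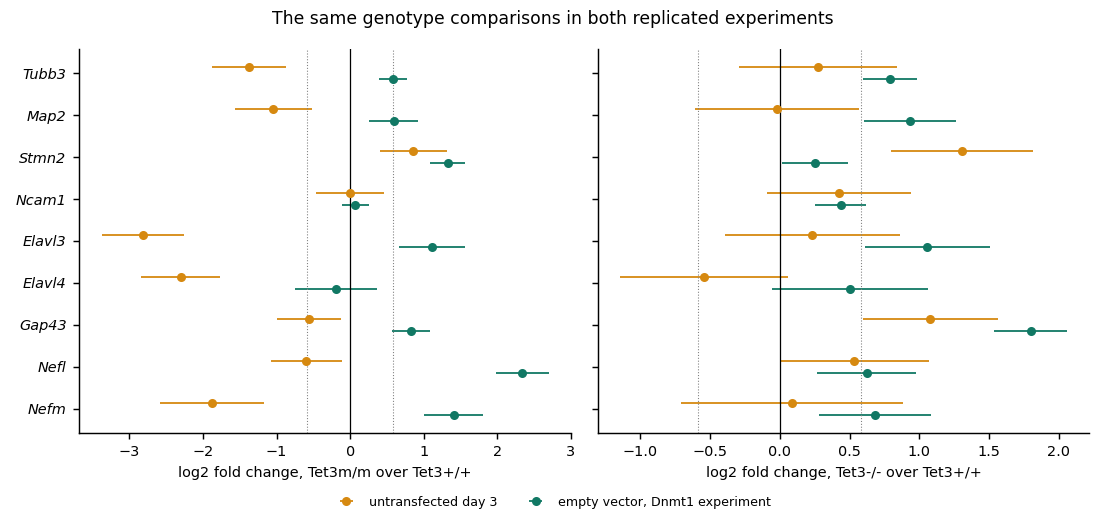
Log2 fold changes of the 9 genes in Tet3m/m (left) and Tet3-/- (right) over Tet3+/+, with 95% intervals from limma, on untransfected day 3 (orange) and with the empty vector of the Dnmt1 experiment (green); dotted lines mark 1.5-fold. In Tet3m/m, Elavl3 is at -2.82 on day 3 and 1.11 with the empty vector, and Nefm at -1.88 and 1.40.

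The same gene thus had opposite signs in the 2 experiments for Tubb3, Map2, Elavl3 and Nefm, all called on day 3 and, apart from Tubb3, with the empty vector. The share of all genes that change sign in this way is not given here. The difference between experiments was not tested. They differ in transfection, selection and handling, so its sources cannot be told apart. Tet3+/+ cells themselves stood at other levels in each table, with Elavl3 at 275 to 494 on day 3 and 69.6 to 73.1 with the empty vector, and Tubb3 at 1311 to 2169.5 and 482 to 519.5. Levels set across separately normalised tables are given for orientation only.

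Tet3-/- empty vector cells also had 6 of 9 members higher than Tet3+/+ and 0 lower, beside 11% and 13.9% of all genes. Gap43 led, at 1155 and 1149 against 365.5 and 299 (3.48-fold, log2 1.80 ± 0.13 SE, adjusted p = 1.41e-10). Elavl3 was at 173 and 129 (log2 1.06 ± 0.22, adjusted p = 0.000305), Map2 at 407 and 401 (0.93 ± 0.16, adjusted p = 4.22e-05) and Tubb3 at 930.5 and 804 (0.79 ± 0.09, adjusted p = 4.28e-07). Nefm, at 137 and 154.5, and Nefl, at 219 and 175.6, rose less (log2 0.68 and 0.62), and their calls were lost without Tet3+/+ library 2 (Nefm, adjusted p = 0.0539) or Tet3-/- replicate 1 (Nefl, adjusted p = 0.0753). Ncam1, at 1657 and 1568 against 1346 and 1053, passed the p-value and not the fold (log2 0.44 ± 0.09 SE). Over all settings and left-out libraries its log2 value ranged from 0.26 to 0.61, the latter without Tet3+/+ library 1. Stmn2, called on day 3, was at 1081.5 and 942 here (log2 0.25, adjusted p = 0.0667), and Elavl4 was at 103.9 and 149.2 (log2 0.50, adjusted p = 0.124). Chromosome 8 genes had a median log2 ratio of -0.35 and -0.37 in these libraries, and Tubb3 reached 1.17 after centring.

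Between both mutants with the empty vector, 2 members were higher and 3 lower in Tet3-/-, beside 18.9% and 20.6% of all genes. Gap43 and Elavl4 were higher (log2 0.97 ± 0.13, adjusted p = 6.63e-07, and 0.70 ± 0.27, adjusted p = 0.0277). Nefl, Stmn2 and Nefm were lower (log2 -1.72 ± 0.17, -1.07 ± 0.11 and -0.72 ± 0.19; adjusted p = 1.44e-08, 3.76e-08 and 0.00236). The Elavl4 call was lost without Tet3m/m replicate 1 or Tet3-/- replicate 2 (adjusted p = 0.274 and 0.259).

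Among the related genes in empty vector cells, 8 of 41 were higher and 10 lower in Tet3m/m than in Tet3+/+ (median log2 0.16), and 21 were higher and 3 lower in Tet3-/- (median 0.69). Of all genes, 10.3% were called higher and 10.9% lower in Tet3m/m, and 11% and 13.9% in Tet3-/-. In Tet3m/m the vesicle gene Syn1 (log2 1.36 ± 0.15 SE), the tubulin gene Tubb2a (1.32 ± 0.07), Uchl1 (0.94 ± 0.06) and the adhesion gene Nrcam (0.86 ± 0.15) led the rises. Dcx, the doublecortin of migrating neurons (-2.22 ± 0.49), its relative Dclk1 (-2.20 ± 0.25), the stathmin Stmn4 (-1.65 ± 0.48) and Prph (-1.25 ± 0.08) led the falls. In Tet3-/- the largest rises were Stmn4 (3.43 ± 0.48), Scg3 (2.81 ± 0.91), Dcx (2.77 ± 0.49) and Map1a, a microtubule-associated protein gene (1.76 ± 0.13), and the 3 falls were Nsg2 (-1.09 ± 0.29), Nefh (-0.96 ± 0.19) and Prph (-0.73 ± 0.08). Against Tet3m/m, 22 of 41 were higher in Tet3-/- and 7 lower, beside 18.9% and 20.6% of all genes. Stmn4 (5.09 ± 0.48), Dcx (4.99 ± 0.49), Celf3 (2.82 ± 0.40) and Dclk1 (2.71 ± 0.25) led, and Nefh (-1.76 ± 0.19), Syn1 (-1.50 ± 0.15), Elavl2 (-1.15 ± 0.10) and Tubb2a (-1.15 ± 0.07) were lowest.

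The neuronal genes higher in empty vector Tet3m/m cells were measured in cultures with high levels of other markers. All 8 pluripotency genes and 9 of 10 extraembryonic endoderm genes were called higher than in Tet3+/+ (median log2 1.39 and 1.40), with sums of 102479 to 104522 against 38929.7 to 39021, and of 229327 to 259946 against 67248 to 73059.8. Of 9 proneural factors 3 were lower and 1 higher (median -1.16), of 12 progenitor factors 6 lower and 3 higher, and of 8 fibroblast genes 5 lower and 1 higher. In Tet3-/- 7 of 8 pluripotency and 8 of 10 extraembryonic endoderm genes were lower (median -2.75 and -1.44) and 5 of 9 proneural factors higher (median 1.03). The same comparison had 1 extraembryonic endoderm gene higher (Foxa2), 4 of 12 progenitor factors higher and 5 lower, and 4 of 8 fibroblast genes higher and 1 lower (median log2 0.95, with sums of 38124 to 38222 against 18795 to 20644). Primitive streak and mesoderm genes were called higher in 3 of 6 and lower in 1 in Tet3m/m, and neural crest genes higher in 1 of 6 and lower in 3. Counting both directions, 3 of 6 primitive streak and mesoderm genes and 3 of 6 neural crest genes were called in Tet3-/-. Over all genes, 10.3% were called higher and 10.9% lower in Tet3m/m, and 11% and 13.9% in Tet3-/-. The part of these lists in the member values was not tested.

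Overexpressed Dnmt1, the maintenance DNA methyltransferase, was used to ask whether added Dnmt1 alters expression in each genotype. Dnmt1 itself stood at 14678.5 and 15225 normalised counts with the empty vector and 22799 and 23768 with Dnmt1 in Tet3+/+, at 11934 and 11285 and at 20244.5 and 23211 in Tet3m/m, and at 17356 and 17554 and at 33380.5 and 39854 in Tet3-/-. With Dnmt1, 1 of the 9 members was called higher in each genotype and 0 lower, and it was Tubb3 each time. Over all genes tested, 0.421% were called higher and 0.753% lower in Tet3+/+, 1.78% and 0.681% in Tet3m/m, and 2.51% and 1.02% in Tet3-/-.

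Tubb3 rose from 482 and 519.5 to 840.0 and 777 in Tet3+/+ (1.61-fold, log2 0.69 ± 0.09 SE, adjusted p = 0.000165). In Tet3m/m it rose from 729 and 771 to 1302 and 1321 (1.75-fold, log2 0.81 ± 0.09, adjusted p = 5.08e-06), and in Tet3-/- from 930.5 and 804 to 1213 and 1426 (1.52-fold, log2 0.60 ± 0.09, adjusted p = 0.000167). Every Dnmt1 library lay above every empty vector library of its genotype. In Tet3-/- the fold fell under the limit without empty vector or Dnmt1 replicate 2 (log2 0.50 and 0.49). The change did not differ detectably between genotypes, with an interaction of 0.12 in Tet3m/m (95% interval -0.16 to 0.39) and -0.09 in Tet3-/- (-0.36 to 0.19). With chromosomes centred the 3 values were 0.68, 0.79 and 0.59.

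Ncam1 passed the p-value with Dnmt1 in Tet3+/+ and Tet3m/m and stayed under the fold. It went from 1346 and 1053 to 1603 and 1591.5 in Tet3+/+ (log2 0.42 ± 0.09, adjusted p = 0.00606) and from 1289.6 and 1211 to 1629 and 1609.6 in Tet3m/m (0.37 ± 0.09, adjusted p = 0.00786). In Tet3-/- it was at 1657 and 1568 before and 1548 and 1701 after (0.01 ± 0.09, adjusted p = 0.967). Over all settings and left-out libraries, the log2 value of Ncam1 in Tet3+/+ ranged from 0.25 to 0.60, the latter without empty vector Tet3+/+ library 1. The adjusted p of Ncam1 did not stay under 0.05 in all of these fits, in Tet3+/+ or in Tet3m/m. Stmn2 passed the p-value and not the fold in Tet3-/-, from 1081.5 and 942 to 1099.9 and 1573 (log2 0.38 ± 0.11, adjusted p = 0.0294), and it was at 2663 and 2718 in Tet3m/m with Dnmt1 (0.34 ± 0.11, adjusted p = 0.0634). Without Dnmt1 Tet3-/- replicate 1, the Tet3-/- log2 values of Stmn2, Nefl and Elavl3 were 0.64, 0.76 and -0.76. Over all settings and left-out libraries they ranged from 0.12 to 0.64, from 0.26 to 0.76 and from -0.82 to -0.40. The adjusted p of Stmn2 in Tet3-/- did not stay under 0.05 in all of these fits.

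Elavl3 was at 96.9 and 80.6 with Dnmt1 in Tet3+/+ (log2 0.31 ± 0.22), at 158 and 155 in Tet3m/m (0.01 ± 0.22) and at 108.5 and 88.1 in Tet3-/- (-0.61 ± 0.22, adjusted p = 0.0683), where both libraries lay below the empty vector libraries at 173 and 129. Nefl in Tet3-/- went from 219 and 175.6 to 235 and 333 (0.51 ± 0.17, adjusted p = 0.0539). Map2, Elavl4, Gap43 and Nefm were not called in any genotype, with log2 values between -0.26 and 0.34. Interaction terms, which ask whether Dnmt1 acts otherwise in a mutant than in Tet3+/+, called 0 of 9 members in Tet3m/m and 0 of 9 in Tet3-/- by limma, beside 0.604% and 3.99% of all genes. At an unadjusted p under 0.05 there were 2 and 4 members, and edgeR and DESeq2 called 0 in both. Ncam1 had an interaction of -0.41 ± 0.12 SE in Tet3-/- with an adjusted p of 0.0379 and a fold under the limit. Over all settings and left-out libraries the value ranged from -0.59, without empty vector Tet3+/+ library 1, to -0.24. The adjusted p of this interaction did not stay under 0.05 in all of these fits. Elavl3 had an interaction of -0.91 ± 0.30 (adjusted p = 0.0652) and Map2 of -0.60 ± 0.22 (adjusted p = 0.104). Without Dnmt1 Tet3-/- replicate 1, the Tet3-/- interactions of Elavl3, Map2 and Stmn2 were -1.06, -0.73 and 0.67. Over all settings and left-out libraries they ranged from -1.12 to -0.70, from -0.77 to -0.43 and from 0.16 to 0.67.

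Of 41 related neuronal genes tested, 2 were called higher with Dnmt1 in Tet3+/+ cells, beside 0.421% of all genes, the adhesion gene Cntn2 (log2 0.72 ± 0.16 SE) and Map1a (0.60 ± 0.13), and 0 lower. In Tet3m/m 3 of 41 were higher, beside 1.78% of all genes, the adhesion gene Chl1 (3.01 ± 0.85, from a mean of 2.60 to 19.4 normalised counts), Dclk1 (1.04 ± 0.25) and Crmp1, a mediator of axon guidance (0.79 ± 0.08). In Tet3-/- 2 of 41 were higher, Stmn4 (1.51 ± 0.48) and Syn1 (0.60 ± 0.15), and 1 lower, Nsg2 (-1.28 ± 0.29), beside 2.51% and 1.02% of all genes. The interaction in Tet3-/- was called for 5 of the 41, beside 3.99% of all genes, and that in Tet3m/m for 0 of 41, beside 0.604%. In Tet3-/- the interaction of Prph was higher (0.65 ± 0.12). Those of Celf3 (-1.81 ± 0.57), Nsg2 (-1.66 ± 0.42), Map1a (-0.75 ± 0.18) and Cntn2 (-0.73 ± 0.23) were lower. Proneural factors were called higher in 2 of 9 in Tet3+/+ and 2 of 9 in Tet3m/m (median log2 1.11 and 0.14), and their median in Tet3-/- was -0.37. Fibroblast genes were higher in 4 of 8 and neural crest genes in 3 of 6 in Tet3m/m, and pluripotency genes in 5 of 8 in Tet3-/-. Counting both directions, 3 of 12 neural progenitor factors were called in Tet3+/+, beside 0.421% higher and 0.753% lower of all genes. In Tet3m/m it was 3 of 12, beside 1.78% and 0.681%. In Tet3-/- it was 0 of 12 progenitor factors and 2 of 8 fibroblast genes, beside 2.51% and 1.02%.

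In the Tet3-CD experiment each group was 1 library, so folds are given with exact binomial 95% intervals that cover counting error only and no difference was tested across replicates. Tet3 counts, which include reads of the construct, went from 4755 under the empty vector to 5441 under Tet3-CD in Tet3+/+, from 1849.9 to 5232 in Tet3m/m, and from 2069.8 to 2759 in Tet3-/-. With the empty vector, 2 of 9 members in the Tet3m/m library were past 1.5-fold above Tet3+/+ and 4 past it below, beside 20.2% and 16.1% of the 17481 genes compared. Stmn2 was higher, at 804 against 254 (log2 ratio 1.66, interval 1.45 to 1.87), and so was Tubb3, at 1044 against 686 (0.60, 0.46 to 0.75). Elavl4 was at 31.7 against 169.9 (-2.39, -3.00 to -1.88), Elavl3 at 92.2 against 184 (-0.99, -1.37 to -0.63), Map2 at 194 against 372 (-0.94, -1.20 to -0.69) and Ncam1 at 1209 against 1964 (-0.70, -0.80 to -0.60). Gap43, Nefl and Nefm stayed inside 1.5-fold, at 421, 603 and 487 against 435, 812 and 460.4.

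In the Tet3-/- library with the empty vector 1 member, Tubb3, was past 1.5-fold higher, at 1157 (log2 ratio 0.75, interval 0.61 to 0.90), and 1, Nefl, past it lower, at 362 (-1.16, -1.35 to -0.98), beside 15.4% and 11.7% of all genes. The remaining 7 ranged between log2 ratios of -0.27 and 0.43. Of the extraembryonic endoderm genes 10 of 10 were past 1.5-fold lower in Tet3m/m and 10 of 10 in Tet3-/- than in Tet3+/+, with sums of 48833, 61431 and 278145, and of the pluripotency genes 7 of 8 and 6 of 8 were past it higher. Of 9 proneural factors 7 were past it lower and 0 higher in Tet3m/m (median log2 ratio -1.52, sums of 321 against 936), and 2 lower and 2 higher in Tet3-/- (median -0.40). Among 40 related neuronal genes compared, 18 were past it higher and 13 lower in Tet3m/m (median log2 ratio 0.45), and 10 higher and 1 lower in Tet3-/- (median 0.22). The part of these lists in the member values was not tested.

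**Figure D5:**
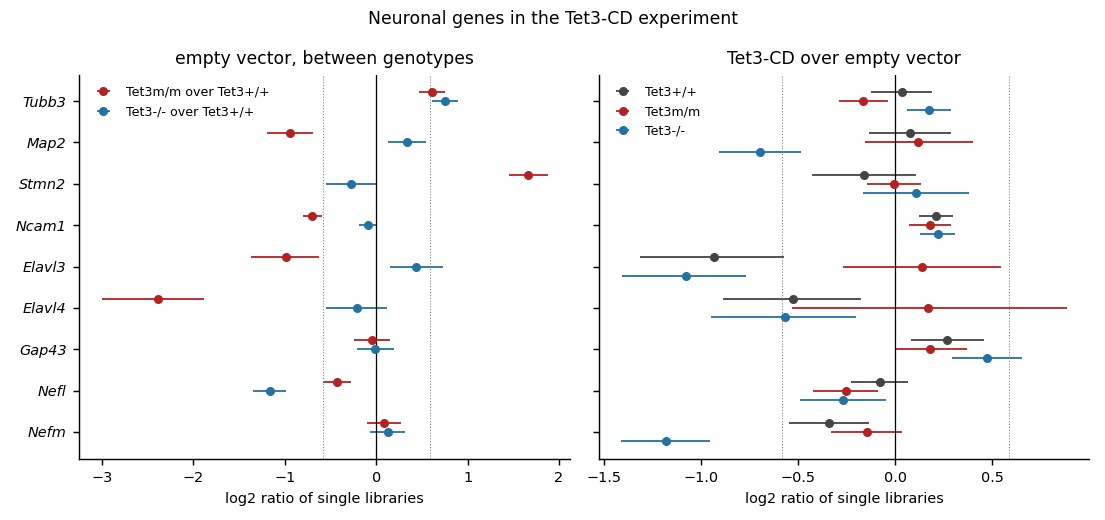
Log2 ratios of single libraries in the Tet3-CD experiment for the 9 genes, between genotypes with the empty vector (left) and with Tet3-CD over the empty vector in each genotype (right); bars are exact binomial 95% intervals of the counts and dotted lines mark 1.5-fold. In Tet3m/m all 9 ratios with Tet3-CD lie between -0.26 and 0.18, and Nefm in Tet3-/- is at -1.18.

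Added Tet3-CD left the 9 members in Tet3m/m inside 1.5-fold of the empty vector, with 0 past it in either direction and log2 ratios from -0.26 in Nefl to 0.18 in Gap43, where 4.58% of all genes were past it higher and 5.53% lower. In Tet3+/+ 1 member, Elavl3, was past it lower, at 95.8 against 184 (log2 ratio -0.93, interval -1.31 to -0.57), and 0 higher, beside 7.3% and 6.11%. In Tet3-/- 3 were past it lower and 0 higher, beside 11.6% and 9.89%. These were Nefm, at 221 against 502 (-1.18, -1.41 to -0.96), Elavl3, at 117 against 249 (-1.08, -1.41 to -0.77), and Map2, at 289 against 469 (-0.70, -0.91 to -0.49). Elavl4 stood just inside the limit in Tet3-/- at 98.3 against 146 (-0.57, -0.95 to -0.20). Proneural factors were past it lower in 4 of 9 in Tet3+/+ and 5 of 9 in Tet3-/-, and extraembryonic endoderm genes in 8 of 10 in Tet3-/-, in the same libraries. Pluripotency genes were past it lower in 3 of 8 in Tet3+/+ and 6 of 8 in Tet3-/-, with 0 higher in either. Neural progenitor factors were past it lower in 3 of 12 and 6 of 12, and higher in 0 and 1. In Tet3m/m 2 of 9 proneural factors were past it higher and 0 lower. Of the 40 related neuronal genes 2 were past it higher and 8 lower in Tet3+/+, 4 and 2 in Tet3m/m, and 9 and 12 in Tet3-/-.

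Across all 26 libraries, with log2 values centred within each experiment, the members did not follow a single profile. The correlation of a member with the mean of the other 8, each scaled to unit spread, was highest for Elavl3 (Pearson r = 0.83), Tubb3 (0.76), Nefm (0.76) and Map2 (0.71), lower for Gap43 (0.66), Nefl (0.57), Elavl4 (0.54) and Ncam1 (0.41), and 0.04 for Stmn2. Among 13209 other genes with a mean of at least 50 in each table, the genes nearest to the mean member profile were Igf1 (r = 0.85), Oxct1 (0.84), Nell2 (0.84), Zyg11b (0.83) and Robo3 (0.83). The 26 libraries share genotypes and tables, so these values describe likeness and carry no test.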

How the data were processed

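RNA-seq was analysed for 26 libraries in 3 experiments. Whole-genome bisulfite, hmeDIP and CUT&Tag samples were not analysed here. Per the study's methods, reads were trimmed (Trim Galore 0.6.7), aligned with STAR 2.7.9a and counted per gene with featureCounts, and the authors deposited counts divided by DESeq2 size factors, a signal per gene that is comparable within a table. The methods name mm39 and the submitters' processing notes mm10, and the strand setting was not given in the sources used here. The values are multiples of a constant per library, from which whole reads were recovered to a tolerance of 0.01.

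log2(value + 1) was tested with limma 3.58.1 (R 4.3.3) with a trended prior, all groups of an experiment in 1 fit, for genes with a mean of at least 10. Fold changes are on that scale, and standard errors and 95% intervals come from the fit. p-values were adjusted by Benjamini-Hochberg over all genes tested, and a gene was called at an adjusted p under 0.05 with a fold above 1.5. The steps were tested on simulated counts with a spread shared by all genes, which was not matched to the spread between these libraries. Other settings tried were a pseudocount of 0.1 or 5, the filter left out or raised to a mean of 50, edgeR 4.0.16 and DESeq2 1.42.0 on recovered reads, TMM rescaling, only the compared groups, no fold threshold, chromosome centring, a replicate block and leaving out each library. The Tet3-CD experiment had 1 library per group and no test, and its intervals cover counting error only. p-values measure the spread between these libraries. The empty vector Tet3+/+ libraries of the Dnmt1 experiment carry no number in the table and are called library 1 and 2 by column order.

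The 9 members and all lists were chosen with earlier results of these data known. Named were all members, up to 4 called related neuronal genes per direction and comparison, Tet3 and Dnmt1, and the 5 genes nearest to the mean member profile. Other cell type lists are given by counts, medians and sums.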

Additional observations from a re-analysis of the deposited data

Results flagged for a closer look

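Ncam1 differed in its response to Dnmt1 between Tet3-/- and Tet3+/+ cells by a test of the difference itself, with an interaction of -0.41 on the log2 scale (limma, adjusted p = 0.0379), below the fold limit. Over all settings and left-out libraries the interaction ranged from -0.59 to -0.24, and the empty vector Tet3+/+ libraries stood apart, at 1346 and 1053. The adjusted p of the interaction did not stay under 0.05 in all of these fits.

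Members moved in opposite directions on day 3 and with the empty vector of the Dnmt1 experiment. The difference between experiments was not tested, and they differ in transfection, selection and handling. In Tet3m/m against Tet3+/+, the log2 fold change on day 3 and with the empty vector was -1.38 and 0.58 for Tubb3, -1.04 and 0.59 for Map2, -2.82 and 1.11 for Elavl3, and -1.88 and 1.40 for Nefm. Between the single empty vector libraries of the Tet3-CD experiment the log2 ratio of the same genotypes was 0.60 for Tubb3, -0.94 for Map2, -0.99 for Elavl3 and 0.08 for Nefm. In Tet3-/- against Tet3m/m it was 0.45 and -1.07 for Stmn2, 1.13 and -1.72 for Nefl, and 1.97 and -0.72 for Nefm. The day 3 value of Stmn2 and the empty vector value of Tubb3 were not called.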

How the results depend on the processing

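Of the called member values, none changed sign under any alternative or left-out library; the cause of the changes below was not tested. The count of members called on day 3 in Tet3-/- against Tet3+/+ was 1, and it was 0 with a pseudocount of 0.1 or a mean of at least 50, and 2 with a pseudocount of 5, DESeq2, chromosome centring or only the compared groups. Without a fold threshold, 2 members were called with Dnmt1 in each genotype and 1 interaction in Tet3-/-. Uncalled values near 0 changed sign for Ncam1 in day 3 Tet3m/m (0.017 by edgeR and 0.014 by DESeq2) and with the empty vector in Tet3m/m after chromosome centring (-0.0050). Same-numbered libraries did not deviate together (correlations of -0.098 to 0.082 on day 3 and -0.053 to 0.029 in the Dnmt1 experiment), so the numbers do not pair them. With a replicate block the counts of members called on day 3 were 6, 1 and 7 in the 3 comparisons, although Gap43 took the place of Stmn2 in Tet3-/- (adjusted p = 0.0448 and 0.0519), and Map2 and Nefm there were at 0.13 and -0.084; with the block 5 members were called between the empty vector mutants, and 1 with Dnmt1 in Tet3m/m and 1 in Tet3-/-. The empty vector Tet3+/+ libraries carry no number and had no such fit.

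Leaving out each library in turn, the number called ranged from 0 to 2 on day 3 in Tet3-/- against Tet3+/+, from 4 to 7 against Tet3m/m, from 1 to 2 with Dnmt1 in Tet3+/+, from 0 to 4 in Tet3-/- and from 0 to 3 for the interaction in Tet3-/-. Values not called changed sign as follows. On day 3 in Tet3m/m against Tet3+/+ the log2 value ranged over -0.17 to 0.24 for Ncam1. On day 3 in Tet3-/- against Tet3+/+ the log2 value ranged over -0.15 to 0.70 for Tubb3, -0.22 to 0.19 for Map2 and -0.29 to 0.46 for Nefm. With the empty vector in Tet3m/m against Tet3+/+ the log2 value ranged over -0.11 to 0.25 for Ncam1 and -0.49 to 0.10 for Elavl4. With the empty vector in Tet3-/- against Tet3m/m the log2 value ranged over -0.26 to 0.16 for Elavl3. With Dnmt1 in Tet3+/+ the log2 value ranged over -0.14 to 0.077 for Stmn2, -0.44 to 0.12 for Elavl4, -0.14 to 0.20 for Gap43, -0.042 to 0.31 for Nefl and -0.031 to 0.20 for Nefm. With Dnmt1 in Tet3m/m the log2 value ranged over -0.36 to 0.10 for Map2, -0.038 to 0.064 for Elavl3, -0.26 to 0.32 for Elavl4 and -0.24 to 0.018 for Gap43. With Dnmt1 in Tet3-/- the log2 value ranged over -0.059 to 0.077 for Ncam1, -0.47 to 0.049 for Elavl4 and -0.11 to 0.063 for Nefm. For the interaction in Tet3m/m the log2 value ranged over -0.23 to 0.13 for Ncam1, -0.11 to 0.48 for Elavl4, -0.30 to 0.035 for Gap43 and -0.11 to 0.24 for Nefl. For the interaction in Tet3-/- the log2 value ranged over -0.20 to 0.031 for Tubb3, -0.33 to 0.23 for Elavl4 and -0.22 to 0.0092 for Nefm. When only libraries of 1 group were left out in turn, the end of the range was 0.086 for Elavl4 with the empty vector in Tet3m/m (Tet3+/+ left out), -0.12 for Gap43 with Dnmt1 in Tet3+/+ (empty vector left out), -0.096 for Elavl4 and 0.0095 for Gap43 in the Tet3m/m interaction (empty vector Tet3+/+ left out), -0.011 and 0.18 for Nefm with Dnmt1 in Tet3+/+ (Dnmt1 libraries left out), and -0.31 and 0.21 for Elavl4 in the Tet3-/- interaction (empty vector Tet3-/- left out). Where a left-out library leaves 1 in its group, that one is assumed to vary like the others. The fewest reads behind a member value were 34, for Elavl4 in 1 library of the Tet3-CD experiment.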
